A study of Mus musculus with 6 samples.

Results

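Regions of CTCF binding that were called in all 6 deposited peak lists and that stood alone on their chromosome are described here. Peaks on chromosomes 1 to 19 were merged into 90494 regions wherever they overlapped by at least 1 bp. Of these, 4810 held a peak of every list and are called six-list regions. A six-list region was taken as isolated when the gap to the nearest other six-list region exceeded 300 kb on both sides, which left 654 isolated regions, 13.6% of the six-list regions. The remaining 4156 served for comparison. The members were chosen by presence of a peak in every list and by the measured gaps, so their number, positions and gaps are given as a description, without a test.

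The series profiled CTCF in thymic regulatory T cells by CUT&RUN, a method in which an antibody directs a nuclease to the protein in permeabilised cells and the released DNA is sequenced. The groups were 3 libraries of wild-type cells (WT) and 3 of Cgas knockout cells (Cgas_KO), which lack the enzyme that senses DNA in the cytosol and makes the messenger cGAMP. Both groups came from mouse thymus, and the sources used here do not give strain, age, sex or the kind of Cgas allele. Nothing states whether replicates of a genotype are separate animals, so a p-value covers only the spread between these libraries, which may be technical. No annotation or genome of the build of the lists, mm39, was at hand, and regions are therefore named by mm39 position, counted from 1, and neither the genes and sequences under them nor the knocked-out gene were examined.

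CTCF is a zinc-finger protein that binds a long, directional DNA motif. Cohesin, a ring complex that extrudes chromatin loops, is halted at bound CTCF, and pairs of sites facing each other become the anchors of loops and the borders of contact domains. CTCF sites are generally frequent in gene-rich DNA and sparse in long gene-poor stretches, where a lone site has few neighbours to pair with. In developing T cells, loops anchored by CTCF help to bring distant enhancers and antigen receptor gene segments together.

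The lists held 26047 to 30535 peaks on these chromosomes. The height of a peak is the maximum signal in it, as deposited, divided by the median over all peaks of its list, so that 1 stands for an ordinary peak. Raw heights were whole multiples of 1 step in each list, and the median peak was 11 to 14 steps high, so heights near 1 are coarse. In a region with several peaks of a list, the tallest gave the height. Read depth is unknown, since only signal within peaks was deposited. The deposited scale differed by genotype. The median raw height was 2.66, 2.76 and 2.73 in WT and 1.64, 1.64 and 1.32 in Cgas_KO. A step was 0.190 to 0.212 in WT and 0.117 to 0.120 in Cgas_KO. The lowest total signal of a called peak was 2453 to 2591 in WT and 1022 to 1574 in Cgas_KO. Its part in genotype differences of height over the list median was not tested.

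Isolated regions were found on all 19 chromosomes, and the share of six-list regions that stood alone varied more than their number per length. The share was highest on chromosome 13, 23.1% (34 of 147), followed by chromosome 12 with 22.7% (37 of 163) and chromosome 16 with 22.0% (28 of 127). It was lowest on chromosome 11, 5.04% (24 of 476), and on chromosome 17, 6.10% (15 of 246). Per 10 Mb between the outermost six-list regions, chromosome 11 had 40.3 six-list regions and chromosome 13 had 12.5. The numbers of isolated regions per 10 Mb were closer, at 2.03 and 2.90, and ranged from 1.72 on chromosome 14 to 3.63 on chromosome 19.

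**Figure D1:**
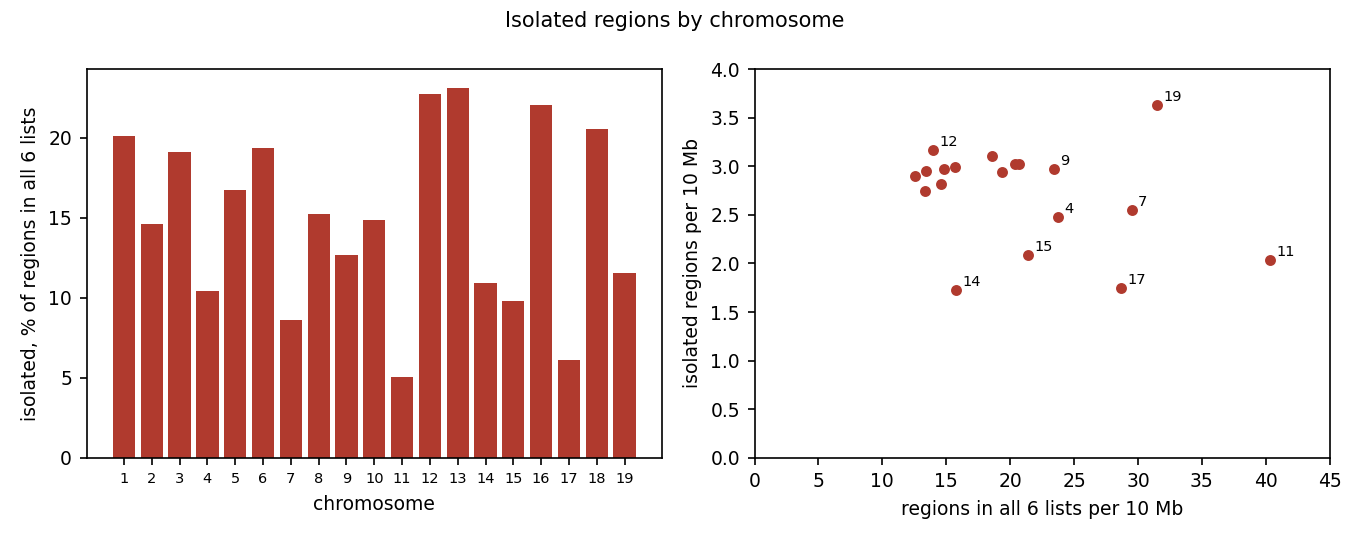
Left, isolated regions as a percentage of the six-list regions of each chromosome. Right, isolated against all six-list regions per 10 Mb, each point being a chromosome (those set apart are numbered). The share runs from 5.04% on chromosome 11 to 23.1% on chromosome 13, while isolated regions per 10 Mb stay between 1.72 and 3.63.

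Most gaps between neighbouring six-list regions were short, with a median of 109700 bp, yet 1416 of 4791 exceeded 300 kb, and these covered 2066 Mb, 86.6% of the DNA between the outermost six-list regions. The nearest gap of an isolated region had a median of 589314 bp, against 35774 bp for the other six-list regions. It exceeded 500 kb for 392 isolated regions, 1 Mb for 161 and 2 Mb for 60. Of the isolated regions, 20 were the first or last six-list region of a chromosome and had a neighbour on only 1 side. Isolated regions often followed one another: of 341 unbroken series of them, 189 were single regions and 19 held at least 5. The longest series had 8 members, on chromosome 1 from 3050017 to 21291045 and on chromosome 8 from 27465180 to 46389971.

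The members closest to the limit show how narrow the choice was there. Just inside it, a pair of neighbours on chromosome 1, 7156833 to 7163101 and 7463298 to 7470578, lay 300196 bp apart, while chromosome 13 from 20672135 to 20676221 had a nearest gap of 300606 bp. Just outside, a pair on chromosome 13, 46886121 to 46892730 and 47192694 to 47199706, lay 299963 bp apart, while the one on chromosome 19 from 34215665 to 34223937 had a neighbour at 299866 bp. Heights were 0.71 to 6.50 times the list median over these 3 regions and 6 libraries inside the limit and 0.69 to 2.57 outside it. Between 300 and 350 kb there were 75 isolated regions, and 133 six-list regions had a nearest gap of 250 to 300 kb.

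The 8 loneliest isolated regions had nearest gaps of 5.15 to 7.61 Mb, and 6 of them stood at 0.73 to 2.69 times the list median. The first, chromosome 4 from 71014804 to 71026071, had 7.61 Mb without a six-list region on its left and 15.5 Mb on its right. It stood at 1.36, 2.08 and 0.93 times the list median in WT and at 1.64, 1.5 and 1.09 in Cgas_KO, so the genotypes overlapped. Chromosome 14 from 87651177 to 87654503, between gaps of 7.58 and 14.1 Mb, stood at 1.07, 1.85 and 1.57 in WT and at 1.64, 1.57 and 1.82 in Cgas_KO. Both are thus ordinary peaks of their lists.

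A string of 3 of these regions lay on chromosome 16, each separated from the next by over 7 Mb. The middle one, 70740921 to 70745770, stood at 1.0, 1.08 and 1.14 in WT and at 1.07, 0.86 and 1.18 in Cgas_KO, which is the height of a median peak in every library. Its left neighbour, 63652876 to 63656614, stood at 1.64, 1.15 and 1.07 in WT and at 1.14, 0.93 and 0.73 in Cgas_KO. Its right neighbour, 77993115 to 77998503, stood at 2.14, 2.69 and 2.43 in WT and at 1.29, 2.36 and 1.36 in Cgas_KO. In this last region, the WT libraries and Cgas_KO replicate 2 lay together above the other Cgas_KO libraries. Chromosome 1 from 111789668 to 111795011, with 5.15 Mb to its left, stood at 1.86, 1.62 and 1.14 in WT and at 1.86, 0.86 and 1.09 in Cgas_KO.

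The other two were tall and lay at the outer end of the six-list regions of their chromosome. Chromosome 18 from 90618884 to 90620785, the last on its chromosome, stood at 7.36, 8.15 and 7.43 in WT and at 7.93, 7.50 and 5.73 in Cgas_KO. Its maxima in the 6 lists fell within 140 bp of one another. Chromosome 14 from 3049980 to 3054397, the first on its chromosome, stood at 837, 824 and 831 times the list median in WT and at 920, 901 and 844 in Cgas_KO. Such heights are far outside the range of ordinary peaks, and whether they come from CTCF was not tested.

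In all, 3 of the 654 isolated regions exceeded 100 times the list median on average, and 3 of the 4156 other six-list regions did. Besides the start of chromosome 14 these include chromosome 2 from 98491613 to 98498415, at 80747 to 92098 times the list median, and also chromosome 6 from 103621926 to 103626568, at 1719 to 1976 times. No region was masked. Next came chromosome 17 from 40152103 to 40160797, at 41.6, 38.6 and 42.9 in WT and 40.6, 36.9 and 37.6 in Cgas_KO. Chromosome 4 from 118403407 to 118406917 stood at 39.1, 42.2 and 35.6 in WT and 43.1, 37.7 and 35.8 in Cgas_KO. In both, the genotypes overlapped.

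At the other end, the lowest isolated region was chromosome 7 from 87913476 to 87919961, at 0.64, 0.38 and 0.50 times the list median in WT and 0.71, 0.57 and 0.91 in Cgas_KO. It was only 5 to 10 steps high. The next were chromosome 16 from 26314152 to 26322402 (0.64 to 0.91 over the 6 libraries), chromosome 19 from 24888484 to 24898238 (0.64 to 1.0), chromosome 16 from 38527712 to 38542748 (0.64 to 1.18) and chromosome 4 from 156567510 to 156583789 (0.64 to 1.07). Low regions were rare among those called in every list. Only 3 of the 654 isolated regions were under the list median in all 6 libraries, and 6 of the 4156 others. By mean log2 height, 31 isolated regions (4.74%) lay below it, against 2.57% of the others. In all 6 libraries, 486 isolated regions (74.3%) were at or above it, against 78.8% of the other six-list regions.

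The longest gaps between six-list regions were not empty, but most of the regions in them were called in 1 list. The longest, on chromosome 4 from 71026072 to 86490888 (15.5 Mb), held 340 regions called in fewer than 6 lists, 286 of them (84.1%) in 1 list only and 3 in 5 lists. The next were chromosome 14 from 87654504 to 101709072 (14.1 Mb), chromosome 12 from 40094702 to 51872037 (11.8 Mb), chromosome 2 from 39264592 to 49339927 (10.1 Mb) and chromosome 6 from 18587876 to 28478057 (9.89 Mb). Regions of a single list made up 85.0% to 90.9% of the regions in these 4, against 77.0% over all gaps longer than 300 kb. The gap on chromosome 2 was bordered by no isolated region and that on chromosome 14 by one on its left, while the other 3 had isolated regions on both sides.

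Peaks were sparse in the 5 longest gaps in every library. They numbered 2.99 to 7.90 per Mb. Over all gaps between six-list regions, which like these hold no six-list peak, they numbered 8.84 ± 0.370 per Mb in WT and 9.59 ± 0.634 in Cgas_KO (SD, n = 3). In the chromosome 2 gap they numbered 4.33 ± 0.303 per Mb in WT and 6.15 ± 0.0993 in Cgas_KO, and in the chromosome 6 gap 3.88 ± 0.509 and 5.33 ± 0.811 (SD, n = 3; two-sided exact permutation p = 0.1 in each, the smallest that 3 against 3 libraries can give, Benjamini-Hochberg adjusted over the 5 gaps 0.25). In both, every Cgas_KO library was above every WT library. In the other 3 the genotypes overlapped (exact permutation p = 0.5 to 0.9). Over all gaps the genotypes overlapped as well, with 8.59 to 9.27 per Mb in WT and 9.0 to 10.3 in Cgas_KO.

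The surroundings of isolated regions also held fewer peaks that are part of no six-list region. Members were chosen for having no other six-list region within 300 kb, so a count of peaks in their flanks is not independent of the choice. Counting only peaks outside six-list regions, each list had 2.07 to 2.56 peaks within 100 kb of an isolated region. Within 100 kb of another six-list region it had 3.33 to 3.89. The difference was -1.27 ± 0.0971 peaks per region (SD over 6 libraries) and had the same sign in 6 of 6 libraries (two-sided exact sign-flip test, p = 0.03125, adjusted over 7 comparisons 0.0547). The libraries share the regions, so this test says only that they agree in direction, and 0.03125 is the smallest p that 6 libraries can give. The adjusted value misses 0.05. Since the choice by gaps already favours sparse flanks, no conclusion about the flanks is drawn from this test. Flanks of the other regions can overlap, at a median nearest gap of 35774 bp, so 1 peak can count for several of them. A peak of every list in these flanks was present at 365 isolated regions (55.8%) and at 81.1% of the others.

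How often the neighbours of an isolated region were called shows how far its isolation rests on the demand for all 6 lists. A region called in exactly 5 lists lay within 300 kb of 293 isolated regions (44.8%), against 80.5% of the other six-list regions. If such regions counted as neighbours, 361 of the 654 would remain isolated, and 202 if those of 4 lists counted as well. Every isolated region had a region of a single list within 300 kb. The most crowded member, chromosome 7 from 20205330 to 20224803, had 10, 7 and 10 other peaks within 100 kb in WT and 5, 7 and 7 in Cgas_KO. By contrast, 2 isolated regions had 0 in all 6 libraries. One is chromosome 1 from 3050017 to 3070073, the first six-list region of its chromosome. Whether the stretch to its left can hold peaks was not examined.

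Some regions were held by every list of 1 genotype and by no list of the other, 346 for WT and 306 for Cgas_KO. A smaller share of isolated than of other six-list regions had one nearby. Within 300 kb, 48 isolated regions (7.34%) had such a WT region and 64 (9.79%) such a Cgas_KO region. The other six-list regions had them in 16.7% and 17.0%. These shares stand beside a lower density of all peaks around isolated regions, and the part of that density in them was not tested.

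Isolated regions were slightly lower than other six-list regions in each library. Their median height was 2.0, 2.0 and 1.93 times the list median in WT and 1.64, 1.64 and 1.55 in Cgas_KO. The others stood at 2.21, 2.15 and 2.14 in WT and at 1.71, 1.71 and 1.64 in Cgas_KO. On the log2 scale the isolated regions differed from the others by -0.10 ± 0.041 (SD over 6 libraries), lower in 6 of 6 (exact sign-flip p = 0.03125, adjusted over 7 comparisons 0.0547). In steps the medians were 28, 26 and 27 against 31, 28 and 30 in WT, and 23, 23 and 17 against 24, 24 and 18 in Cgas_KO, so the Cgas_KO difference was a single step. Over regions with 1 peak in each list (468 isolated, 2305 others) the log2 difference was -0.07, and over regions 4000 to 8000 bp wide it was -0.06, both short of 0.05 (exact sign-flip p = 0.0625 and 0.125).

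**Figure D2:**
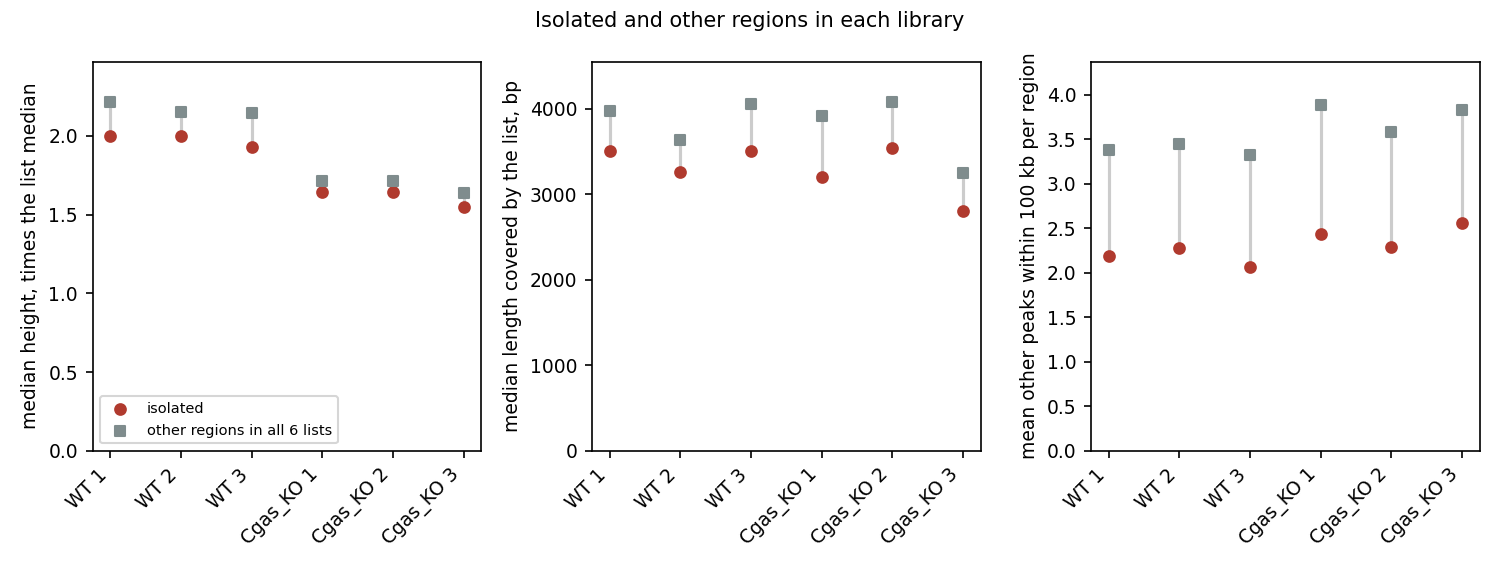
For each library, the median height over the list median (left), the median length covered by the peaks of the list (middle) and the mean number of peaks outside six-list regions within 100 kb (right), for isolated regions (circles) and other six-list regions (squares). All axes start at 0. The circle lies below the square in 6 of 6 libraries in each panel, by least in the heights of Cgas_KO.

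They were also narrower and simpler. Merged isolated regions had a median width of 6382 bp (quartiles 4727 and 8992 bp), and the others of 7584 bp (5402 and 10897 bp). The length covered by a single list in an isolated region had a median of 3504, 3260 and 3508 bp in WT and of 3203, 3542 and 2805 bp in Cgas_KO. It was below that of the others in 6 of 6 libraries, by -0.21 ± 0.045 on the log2 scale (SD; exact sign-flip p = 0.03125, adjusted 0.0547). Each list had 1.09 to 1.20 peaks in an isolated region and 1.23 to 1.34 in another (difference -0.132 ± 0.0150, SD over 6 libraries, exact sign-flip p = 0.03125, adjusted 0.0547). Over regions with 1 peak in each list the log2 difference in covered length was -0.04. In 71.6% of isolated regions every list had exactly 1 peak, against 55.5% of the others.

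Of the 3 narrowest isolated regions, the first and the last were tall, at least 5 times the list median in each library, and the middle one was not. Chromosome 7 from 144894033 to 144895218, 1186 bp wide, stood at 9.64, 11.2 and 10.6 times the list median in WT and at 9.21, 8.86 and 8.91 in Cgas_KO. Next in width, chromosome 12 from 57764731 to 57766361, 1631 bp wide, stood lower, at 2.86, 3.23 and 2.71 in WT and 3.86, 3.07 and 2.64 in Cgas_KO, and there the heights of the genotypes overlapped. Chromosome 16 from 97907157 to 97908990, 1834 bp wide, stood at 18.4, 18.2 and 18.7 in WT and at 17.1, 16.1 and 13.5 in Cgas_KO, with all 6 maxima within 4 bp. Over the list median, the regions on chromosomes 7 and 16 were lower in every Cgas_KO library than in every WT library. The rank within the library was higher in every Cgas_KO library than in every WT library for all 3 regions. Such ranks were seen in 83 isolated regions (12.7%), against 8.61% of all six-list regions. In the limma fit on ranks described below, adjusted p was 0.553, 0.426 and 0.773 for chromosomes 7, 12 and 16.

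The 3 widest isolated regions differed in how their lists divided them into peaks. Chromosome 12 from 20240089 to 20375855, 135767 bp wide, held 6, 7 and 8 peaks in the WT lists and 1, 2 and 1 in the Cgas_KO lists, at heights of 1.71, 1.69 and 1.93 in WT and 1.07, 1.29 and 0.91 in Cgas_KO. The WT libraries thus exceeded the Cgas_KO libraries in number of peaks and in height, without overlap. WT peaks covered 101832, 119585 and 116039 bp of it, and Cgas_KO peaks only 5051, 6599 and 3182 bp. Its 6 maxima spanned 79354 bp. In the limma fit on ranks described below, its adjusted p was 0.425. Heights lower in Cgas_KO without overlap were seen in 203 isolated regions (31%) and in 36.2% of the others. Chromosome 13 from 12792604 to 12901851, 109248 bp wide, held 6, 10 and 10 peaks in WT and 7, 4 and 15 in Cgas_KO, at heights of 1.38 to 1.73. Chromosome 3 from 92117141 to 92195677, 78537 bp wide, held 1, 3 and 1 peaks in WT and 3, 1 and 6 in Cgas_KO, at heights of 2.0 to 2.93. A single peak of WT replicate 1, WT replicate 3 and Cgas_KO replicate 2 covered 72802, 71562 and 74588 bp there. Neither of these last regions showed the difference in peak number of the chromosome 12 region, and their heights overlapped between genotypes. Ranks within the library did not overlap in any of the 3, lower in Cgas_KO on chromosome 12 and higher on chromosomes 13 and 3. The limma adjusted p on ranks was 0.408 on chromosome 13 and 0.423 on chromosome 3. Such ranks were lower in 59 isolated regions (9.02%, against 7.61% of all) and higher in 83 (12.7%, against 8.61%).

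The position of the maximum, which marks the most strongly covered bases, was shared between libraries to a similar degree in isolated and other regions. The 6 maxima of an isolated region spanned a median of 603 bp, against 702 bp in the others, and they fell within 200 bp in 137 isolated regions (20.9%) and 20.8% of the others. Counted per library, the maximum lay within 200 bp of the median of the other 5 lists in 63.1% ± 0.701 of isolated regions in WT and 56.5% ± 1.19 in Cgas_KO (SD, n = 3; two-sided exact permutation p = 0.1). The other six-list regions gave 64.0% ± 0.633 and 56.8% ± 1.90. Isolated and other regions differed by -0.562 ± 0.997 points (SD over 6 libraries; exact sign-flip p = 0.312, adjusted 0.365), lower in 3 of 6. Without any 1 library, when the median is over 4 other lists, the difference became 0.182 to 1.05 points, positive in all 6 cases.

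Among isolated regions, agreement of the maxima went with height. The 49 whose mean log2 height was at least that of 5 times the list median had maxima spanning a median of 76 bp, the 182 of mean log2 height 1 to 2 had 328 bp, and the 376 of 0 to 1 had 1080 bp. The 31 below the list median had 4797 bp. The same order held in the other six-list regions, with 129, 333, 1480 and 5746 bp.

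Tall regions, at least 5 times the list median, were a smaller share in Cgas_KO than in WT among isolated regions as among the others. On this scale all six-list regions had a median log2 difference of -0.36, Cgas_KO minus WT. Scaled to the median of the six-list regions it was -0.03. How far the smaller share reflects this common shift was not tested. They made up 11.1% ± 0.0883 of isolated regions in WT and 5.96% ± 0.265 in Cgas_KO (SD, n = 3; two-sided exact permutation p = 0.1), with no overlap. The others gave 12.5% ± 0.638 and 5.25% ± 0.605. The share of isolated regions was thus below that of the others in 3 of 3 WT libraries and above it in 3 of 3 Cgas_KO libraries, by -1.34 ± 0.562 and 0.718 ± 0.783 points (SD, n = 3; exact permutation p of the difference between genotypes 0.1, adjusted over 6 such comparisons 0.2). Averaged over all 6 libraries, the difference of -0.313 points had no firm sign (exact sign-flip p = 0.625, adjusted 0.625), and without WT replicate 1 it was 0.00935. At 3 times the list median in place of 5, it was -3.41 points (exact sign-flip p = 0.03125, the smallest possible). In all 6 libraries, 32 isolated regions (4.89%) were tall, against 3.78% of the others. A further 15 (2.29%, against 3.24% of all six-list regions) were tall in all 3 WT libraries and in no Cgas_KO library, and 0 isolated and 0 other regions the other way round.

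Heights over the list median were lower in Cgas_KO across the six-list regions, and the differences of isolated regions were slightly nearer 0. The median log2 difference, Cgas_KO minus WT, was -0.30 over isolated regions and -0.37 over the others, and it was below 0 in 516 isolated regions (78.9%), against 82.4% of all six-list regions. It was at least 1 lower in 17 isolated regions (2.6%), against 3.85% of all. Scaling to the median of the six-list regions instead of the list moved the median of all of them from -0.36 to -0.03, and isolated regions then stood at 0.03 and the others at -0.04. The difference between isolated and other regions does not depend on this choice. Taken from the library medians above, it was 0.07 on the log2 scale (isolated minus other, -0.14 ± 0.025 in WT and -0.07 ± 0.012 in Cgas_KO, with the SD over 3 libraries). These values did not overlap between genotypes (exact permutation p = 0.1, the smallest possible, adjusted over 7 comparisons 0.14). They are coarse, since the medians are whole steps, in Cgas_KO 23, 23 and 17 for isolated regions and 24, 24 and 18 for the others. The exact permutation p was 0.3 at a gap limit of 200 kb and with 1 peak in each list, and 0.2 over regions 4000 to 8000 bp wide. With total signal in place of height the sign turned, to -0.05 (exact permutation p = 0.2).

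**Figure D3:**
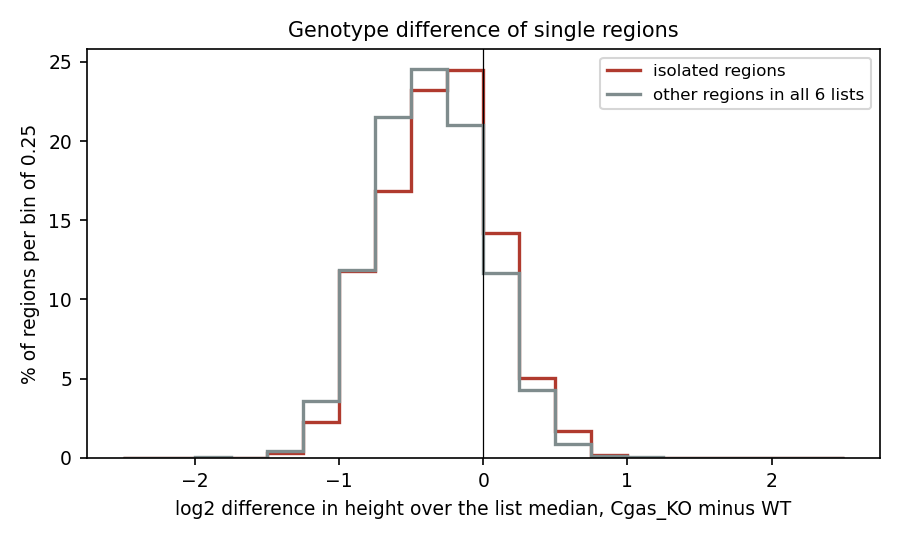
Distribution of the log2 difference in height over the list median, Cgas_KO minus WT, for the 654 isolated regions and the 4156 others, as a percentage of each set in bins of 0.25. Both lie mostly below 0, with medians of -0.30 and -0.37.

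The size of the genotype difference moved with height. In isolated regions of mean log2 height 0 to 1 the median difference was -0.18, at 1 to 2 it was -0.52, in the 16 regions between that class and 5 times the list median it was -0.76, and at 5 times and above it was -0.65. The other regions gave -0.22, -0.51, -0.67 and -0.76. The isolated regions below the list median had 0.05. On normal scores of ranks, which take out the common shift, the isolated classes from 0 to 1 upward gave 0.09, -0.10, -0.09 and 0. It also moved with the gap among isolated regions: the 60 whose nearest gap exceeded 2 Mb had a median of -0.08, against -0.31, -0.34 and -0.27 for nearest gaps of 300 to 500 kb, 500 kb to 1 Mb and 1 to 2 Mb. These 60 were lower in each library than the 262 with the shortest gaps. Their median heights were 1.79, 1.77 and 1.64 in WT and 1.57, 1.5 and 1.27 in Cgas_KO. Those of the 262 were 2.0, 2.15 and 2.07 in WT and 1.64, 1.71 and 1.64 in Cgas_KO. Height and gap thus moved together, and their separate parts in the genotype difference were not tested.

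Single regions were tested on height ranks taken per library and turned into normal scores, which removes any shift or scaling common to a list. With limma fitted to all 4810 six-list regions and Benjamini-Hochberg adjustment, 0 isolated regions passed an adjusted p of 0.05, and 0% of all six-list regions did. The lowest adjusted p among the isolated regions was 0.312. At an unadjusted limma p under 0.05 there were 75 isolated regions (11.5%), against 9.29% of all. Of these, 48 ranked higher in Cgas_KO (7.34%, against 5.47% of all) and 27 lower (4.13%, against 3.83%). Ranks did not overlap between genotypes in 83 isolated regions that were higher in Cgas_KO (12.7%, against 8.61% of all) and in 59 that were lower (9.02%, against 7.61%). On log2 height over the list median, which keeps the common drop, limma called 102 isolated regions (15.6%, against 17.9% of all), 101 of them lower in Cgas_KO (15.4%, against 17.7% of all). Scaled to the median of the six-list regions, limma called 0 isolated regions, against 0.0208% of all, with 122 at an unadjusted p under 0.05 (18.7%, against 17.9% of all).

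The 5 isolated regions with the smallest p among those ranking lower in Cgas_KO did not overlap between genotypes in height. Choosing by p favours this, and on this scale it was common. Heights over the list median were lower in Cgas_KO without overlap in 203 isolated regions (31%), against 36.2% of the others. Chromosome 7 from 71886397 to 71892145 stood at 2.93, 2.62 and 2.43 times the list median in WT and at 1.29, 1.36 and 1.18 in Cgas_KO. Its log2 difference was -1.06 (limma SE 0.22), while its limma adjusted p on ranks was 0.312. Chromosome 5 from 53748770 to 53753355, which lies between gaps of 7.94 and 4.06 Mb, stood at 2.14, 2.54 and 2.64 in WT and at 1.21, 1.21 and 1.18 in Cgas_KO. In both, peaks at over 2 times the list median in each WT library were near it in Cgas_KO. By total signal, the rank score of the chromosome 5 region differed by only -0.10, against -1.05 by height. The largest drop was at chromosome 8 from 127915548 to 127920269, with 2.0, 3.08 and 3.79 in WT and 0.93, 1.14 and 1.18 in Cgas_KO. Its log2 difference was -1.41 (limma SE 0.26), and of the 5 its WT libraries also differed most among themselves.

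The remaining ones lay on chromosomes 6 and 18. Chromosome 6 from 31636261 to 31643669 stood at 1.86, 1.62 and 1.64 in WT and at 0.86, 1.07 and 0.73 in Cgas_KO, but by total signal its rank was higher in Cgas_KO. Chromosome 18 from 66051157 to 66062367 stood at 3.14, 3.23 and 3.29 in WT and at 1.57, 1.64 and 1.27 in Cgas_KO, which is -1.11 on the log2 scale (limma SE 0.22). None of these 5 passed adjustment on ranks (limma adjusted p = 0.312 for each).

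Of the 5 that ranked higher in Cgas_KO, the first was chromosome 1 from 159869277 to 159878882, at 1.0, 1.31 and 1.14 in WT and 1.71, 1.64 and 1.73 in Cgas_KO. Its rank score differed by 1.26 by height and by 0.03 by total signal. Chromosome 15 from 21857158 to 21865055, with 9.88 Mb to its left, stood at 1.36, 1.46 and 1.57 in WT and at 2.36, 2.21 and 1.73 in Cgas_KO. The tallest of them was chromosome 1 from 175449100 to 175455016, at 3.14, 3.08 and 3.07 in WT and 4.79, 3.71 and 5.45 in Cgas_KO, which is 0.57 on the log2 scale (limma SE 0.23). It was higher in every Cgas_KO library than in every WT library, while the median isolated region of its height class (mean log2 height 1 to 2) differed by -0.52. Chromosome 12 from 4266567 to 4273979 went from 1.36, 1.38 and 0.93 to 2.43, 2.0 and 1.64, the largest difference of the 5 at 0.73 (limma SE 0.25). Chromosome 4 from 156567510 to 156583789, also among the lowest isolated regions, went from 0.79, 0.69 and 0.64 to 1.0, 1.07 and 0.91, and is the last six-list region of its chromosome. None passed adjustment on ranks (limma adjusted p = 0.312 for each).

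**Figure D4:**
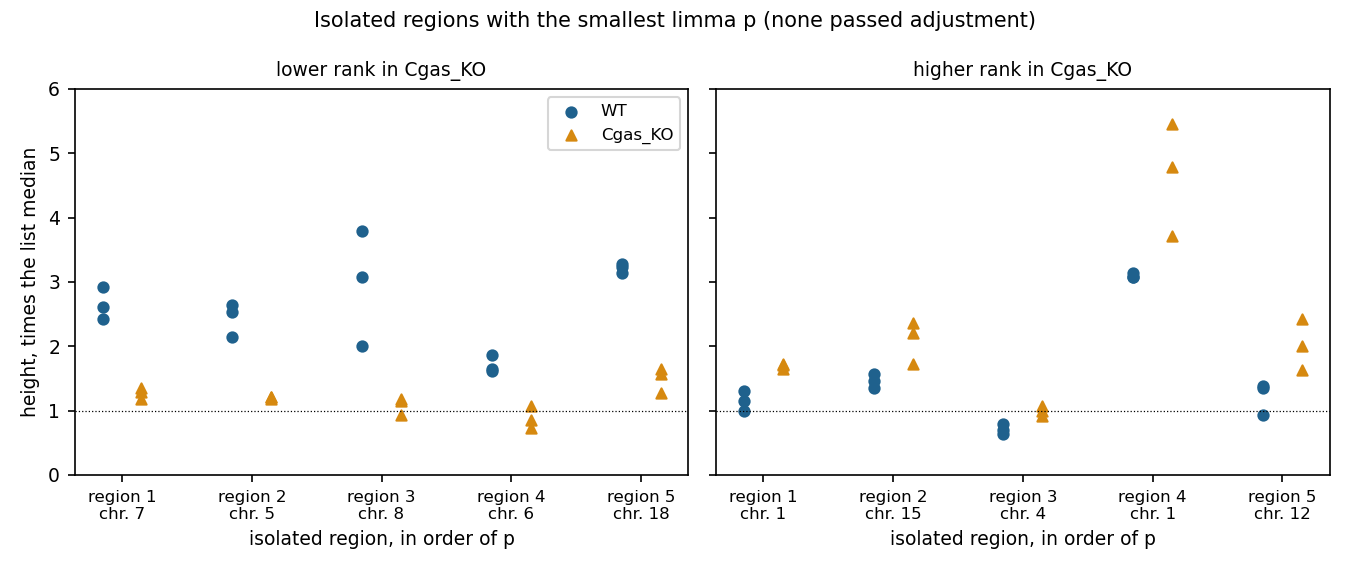
Heights over the list median in each library for the 5 isolated regions with the smallest limma p among those ranking lower (left) and higher (right) in Cgas_KO, in order of p, with circles for WT and triangles for Cgas_KO and a dotted line at the list median. The 10 regions were picked by p, and in each the heights of the genotypes do not overlap. Such separation, lower in Cgas_KO, was seen in 203 isolated regions (31%), against 36.2% of the others. Higher in Cgas_KO, it was seen in 17 (2.6%), against 1.76% of the others. None of the 10 passed adjustment on ranks.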

How the data were processed

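CTCF CUT&RUN of mouse thymic regulatory T cells gave 1 peak list per library, 3 WT and 3 Cgas_KO, grouped by the labels. Bowtie2 and SEACR 1.3 were used per the submitters' processing notes, which name both mm10 and mm39; the sequence names in the lists belong to mm39. The caller's threshold, its control and the signal scaling were not given in the sources used here. Deposited were the total and maximum signal of each peak, as the authors' caller wrote them. Maxima under 200 steps were whole multiples of 1 step within 0.01 step for 100% of peaks.

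Merging, gaps and exact tests used Python 3.11.15, numpy 2.4.6, pandas 2.3.3 and scipy 1.17.1, figures matplotlib 3.10.9, and single regions limma 3.58.1 (R 4.3.3). A region at a chromosome end counted as open on that side. Scripts were tested on simulated lists and heights. Regions named are the 8 with the largest nearest gap, the 5 longest gaps, the 5 tallest and lowest, the 3 widest and narrowest, the 5 with the smallest limma p in each direction, the 3 on each side of the gap limit, and those with most and fewest flanking peaks. Members and lists were chosen with earlier results of these data known. Gap bins, height classes, neighbours by number of lists, and series of regions were chosen after the values were seen. Promoters, genes and motifs were not analysed here.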

Additional observations from a re-analysis of the deposited data

Results flagged for a closer look

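Chromosome X entered no comparison and was listed because it holds signal outside the data compared. By the same rule, 37 of its 85 six-list regions were isolated (43.5%), against 5.04% to 23.1% on chromosomes 1 to 19. Their median heights were 1.64, 1.54 and 1.71 times the list median in WT and 1.5, 1.43 and 1.55 in Cgas_KO. No explanation was tested.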

How the results depend on the processing

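The number of isolated regions was 637 to 669 with each library left out and a peak in the other 5 asked for. It was 928 and 392 with gap limits of 200 and 500 kb. When at least 50% of a region had to be covered in each list, only 590 regions in place of 4810 were in all lists. Of these 590, 401 were isolated by the gaps among them, so they need not be among the 654. Counting neighbours of 5 or of 4 lists, added after the data were seen, gave 361 and 202. The log2 height difference between isolated and other regions kept its sign in all 13 alternatives. It did not reach an unadjusted 0.05 at a gap limit of 200 kb (-0.0703), with 1 peak in each list (-0.0709) or, added later, at 4000 to 8000 bp (-0.0565). With a library left out, the exact sign-flip test cannot go below 0.0625. The differences were then -0.110 to -0.0918 in log2 height, -0.219 to -0.193 in log2 covered length, -0.137 to -0.129 in peaks per region and -1.29 to -1.24 in flanking peaks. The share of tall regions differed by -0.690 to 0.00935 points with a library left out, reversing without WT replicate 1 (0.00935). It reversed with 1 peak in each list (0.495) and was -3.41 at 3 times the list median (exact sign-flip p = 0.03125). Agreement of maxima differed by -1.35 and -1.29 points at gap limits of 200 and 500 kb and by -2.46 with 1 peak in each list. It reversed to 1.76 at 500 bp and to 0.182 to 1.05 with a library left out, so it has no settled direction. The genotype change of height reversed only with total signal (-0.0463) among 14 alternatives, but its exact permutation p rose from 0.1 to 0.3 at a gap limit of 200 kb and with 1 peak in each list, and to 0.2 at 4000 to 8000 bp. Limma called 102 isolated regions on log2 height over the list median and 0 in the other 12 alternatives, where an unadjusted p under 0.05 held for 43 to 122 (8.10% to 18.7% of isolated regions, against 6.82% to 17.9% of all regions in the same fits). The cause of these shifts was not tested, except that leaving out a library removes 1 list. Of the 100 alternative values of the 10 regions named from limma, 1 changed sign, chromosome 6 from 31636261 with total signal (0.63 on the rank scale). Total signal also left little of the difference at chromosome 5 from 53748770 (-0.10) and chromosome 1 from 159869277 (0.03).

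Same-numbered replicates did not deviate together (r -0.0170 to -0.0156 across regions), and no library correlated best with its own number. With the replicate number as a block, limma called 0 isolated regions, with 68 at an unadjusted p under 0.05 (10.4%, against 8.59% of all), and the genotype change of height was 0.07 (exact sign-flip p = 0.25, the smallest possible). Peaks per region could not be computed for regions of 1 peak per list. Unknown depth limits what heights of a few steps can show.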
